A study of Mus musculus with 10 samples.

Results

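S100 proteins, annexins and galectins were followed in mouse cells through 10 of their genes, S100a4, S100a6, S100a10, S100a11, Anxa1, Anxa2, Anxa3, Anxa5, Lgals1 and Lgals3. These 10 of the 24194 genes in the RPKM table (reads per kilobase of transcript and per megaread mapped) were selected by name from the 3 families, with earlier results of the same data known and over all 5 groups of libraries. Their levels and differences are therefore given as a description, with standard errors and without p-values. All 10 passed the filter of at least 1 RPKM in at least 2 libraries, as did 11838 genes in all.

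S100 proteins are small dimers that bind calcium through EF-hands (S100a10 has lost that ability), annexins are proteins that bind membrane phospholipids when calcium rises, and galectins are lectins that bind beta-galactosides on glycoproteins. The families meet in known complexes: a dimer of S100a10 joins a pair of Anxa2 molecules at the inner face of the plasma membrane, and S100a11 binds Anxa1. Many of these genes are active in epithelia, fibroblasts and macrophages, and several serve as markers of cell spreading, membrane repair or mesenchymal change.

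RNA came from V6.5 mouse embryonic stem cells (ESCs), which grew on irradiated mouse embryonic fibroblasts with leukemia inhibiting factor, and from cells derived from them, labelled NPCs (neural progenitor cells). To make NPCs, ESCs spent 4 days as embryoid bodies and were then plated as single cells in ITSF medium. NPCs were transfected on day 5, and their RNA was taken on day 8. ESCs received a control siRNA against luciferase or a siRNA against Cbx3, which encodes the heterochromatin protein HP1 gamma, and the time of their transfection is not stated apart from that of the NPCs. NPCs received the luciferase control, the Cbx3 siRNA or a siRNA against Med26, which encodes a component of the Mediator coactivator of RNA polymerase II. Each of the 5 groups has 2 libraries, numbered 1 and 2 and called biological replicates by the labels, all from 1 cell line, so errors measure only the spread between these samples. The series title names Cbx3 as a keeper of lineage in neural differentiation.

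The target of each siRNA was lower in both libraries that received it than in their controls. The NPC control libraries held 9.37 and 9.65 RPKM of Cbx3, the NPC Cbx3 siRNA libraries 0.425 and 0.248, and the Med26 siRNA libraries 7.87 and 7.93. In ESC control Cbx3 stood at 13.99 and 56.4 RPKM, against 1.01 and 1.96 with its siRNA. The Med26 siRNA libraries held 3.04 and 3.07 RPKM of Med26, against 7.56 and 6.78 in NPC control and 5.61 to 7.42 in the remaining libraries. The NPC label held in part. Of 8 neural progenitor markers, 5 passed the filter, and between NPC and ESC control Nes and Sox1 were called higher in NPCs and Sox2 lower, while Hes5, Fabp7 and Zbtb16 did not exceed 0.353 RPKM in any library. Of 8 ESC markers 5 were called lower in NPCs (Esrrb, Klf4, Nr0b1, Tfcp2l1 and Zfp42) and 3 were not called. Among the latter was Pou5f1, at 484 and 497 RPKM in NPC control against 536 and 308 RPKM in ESC control. Of all tested genes 10.2% were called higher in NPC than in ESC control and 5.89% lower. The ESC replicates stood apart from each other, with r = 0.949 over genes in both ESC groups against 0.995 to 0.996 in the NPC groups. Steps in the low values correspond to 23.3 to 63.8 megareads per library, which puts an estimated 10 to 86 reads behind each value of S100a11, 31 to 694 behind each of S100a4 and 238 to 9110 behind each of the other genes.

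The sequences just before the start sites of 4 of the genes are shown because these genes gave the largest NPC responses to Cbx3 siRNA or the largest difference between ESCs and NPCs. They are the 250 bases upstream of the RefSeq start (build GRCm38.p6), 5′ to 3′ on the gene's strand, and RefSeq promoters were matched for 7 of the 10 genes (S100a4, S100a6, S100a11, Anxa1, Anxa2, Anxa5 and Lgals3). Capitals mark the AP-1 motif TGANTCA and the TATA box TATAAA. S100a4 lies at chr3:90603520-90603769 on the plus strand, S100a6 at chr3:90612644-90612893 on the plus strand, Anxa1 at chr19:20390672-20390921 on the minus strand and Anxa2 at chr9:69453433-69453682 on the plus strand.
S100a4: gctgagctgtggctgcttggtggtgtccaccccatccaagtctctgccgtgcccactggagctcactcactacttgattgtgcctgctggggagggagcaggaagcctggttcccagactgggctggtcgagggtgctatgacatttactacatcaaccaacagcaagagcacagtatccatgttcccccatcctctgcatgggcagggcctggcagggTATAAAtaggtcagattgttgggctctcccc
S100a6: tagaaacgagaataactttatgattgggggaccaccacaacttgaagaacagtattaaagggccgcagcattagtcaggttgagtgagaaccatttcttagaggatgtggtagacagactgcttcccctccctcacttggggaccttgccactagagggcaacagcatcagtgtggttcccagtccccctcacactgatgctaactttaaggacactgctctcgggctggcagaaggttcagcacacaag
Anxa1: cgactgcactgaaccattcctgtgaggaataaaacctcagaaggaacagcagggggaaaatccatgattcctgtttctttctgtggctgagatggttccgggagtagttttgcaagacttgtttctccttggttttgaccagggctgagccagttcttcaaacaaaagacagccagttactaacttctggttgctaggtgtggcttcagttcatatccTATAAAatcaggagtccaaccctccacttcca
Anxa2: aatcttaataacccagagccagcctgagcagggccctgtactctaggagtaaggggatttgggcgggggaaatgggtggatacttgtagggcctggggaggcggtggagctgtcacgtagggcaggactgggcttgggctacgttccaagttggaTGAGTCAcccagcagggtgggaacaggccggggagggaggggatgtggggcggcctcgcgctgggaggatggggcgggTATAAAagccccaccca

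S100a4, Anxa1 and Anxa2 each held a TATA box, which began 31, 32 and 17 bases before the start site and occurred in 12.97% of all 27025 RefSeq promoters of this length. The AP-1 motif stood in the Anxa2 window, 95 bases before the start, and in that of S100a11, 136 and 38 bases before the start, against 6.87% of all promoters. GC boxes (GGGCGG) stood in S100a11, Anxa2 and Lgals3 and in 32.9% of promoters, and the TEAD motif GGAATG stood in Anxa1 and in 12.6%. Both strands were searched and no match overlapped another motif. S100a6 and Anxa5 had none of the 4 motifs in these windows, which says only that these letters are not there. A match is a string of letters and was not tested as a binding site.

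In the gene order of the RefSeq table, S100a4 and S100a6 lie on chromosome 3 in 1 run of S100 genes, separated by S100a5. S100a11 and S100a10 are direct neighbours farther along the same chromosome, and Anxa5 is on it as well. The other genes lie on chromosomes 19 (Anxa1), 9 (Anxa2), 5 (Anxa3), 15 (Lgals1) and 14 (Lgals3). S100a11, Anxa2 and Lgals1 each have a named pseudogene copy, and reads of such copies may be counted with them, since no source used here says how reads with several matches were treated.

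In NPC control the levels spanned from 0.916 to 141 RPKM (group means). Lgals1 was highest, followed by S100a10 (126 RPKM), S100a6 (33.5), Anxa3 (24.2), Anxa2 (21.5), Anxa5 (11.5), Anxa1 (7.64) and Lgals3 (6.81), and the libraries of neighbours in this order did not overlap. S100a4 (1.25 RPKM) and S100a11 (0.916 RPKM) came last, and their libraries overlapped. After Cbx3 siRNA the order was the same down to Anxa2, Anxa3 and Anxa2 overlapped at 52.5 and 52.4 RPKM, and Anxa1 (21.1 RPKM) and Lgals3 (15.6 RPKM) stood above or level with Anxa5 (15.3 RPKM). After Med26 siRNA S100a10 (180 RPKM) stood above Lgals1 (131 RPKM). In ESC control Lgals1 (169 RPKM) was again highest and S100a11 (2.99 RPKM) lowest, S100a4 (30.8 RPKM) stood in the middle of the order, and S100a6 with S100a10 and all neighbours from Anxa2 to Anxa5 overlapped.

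**Figure D1:**
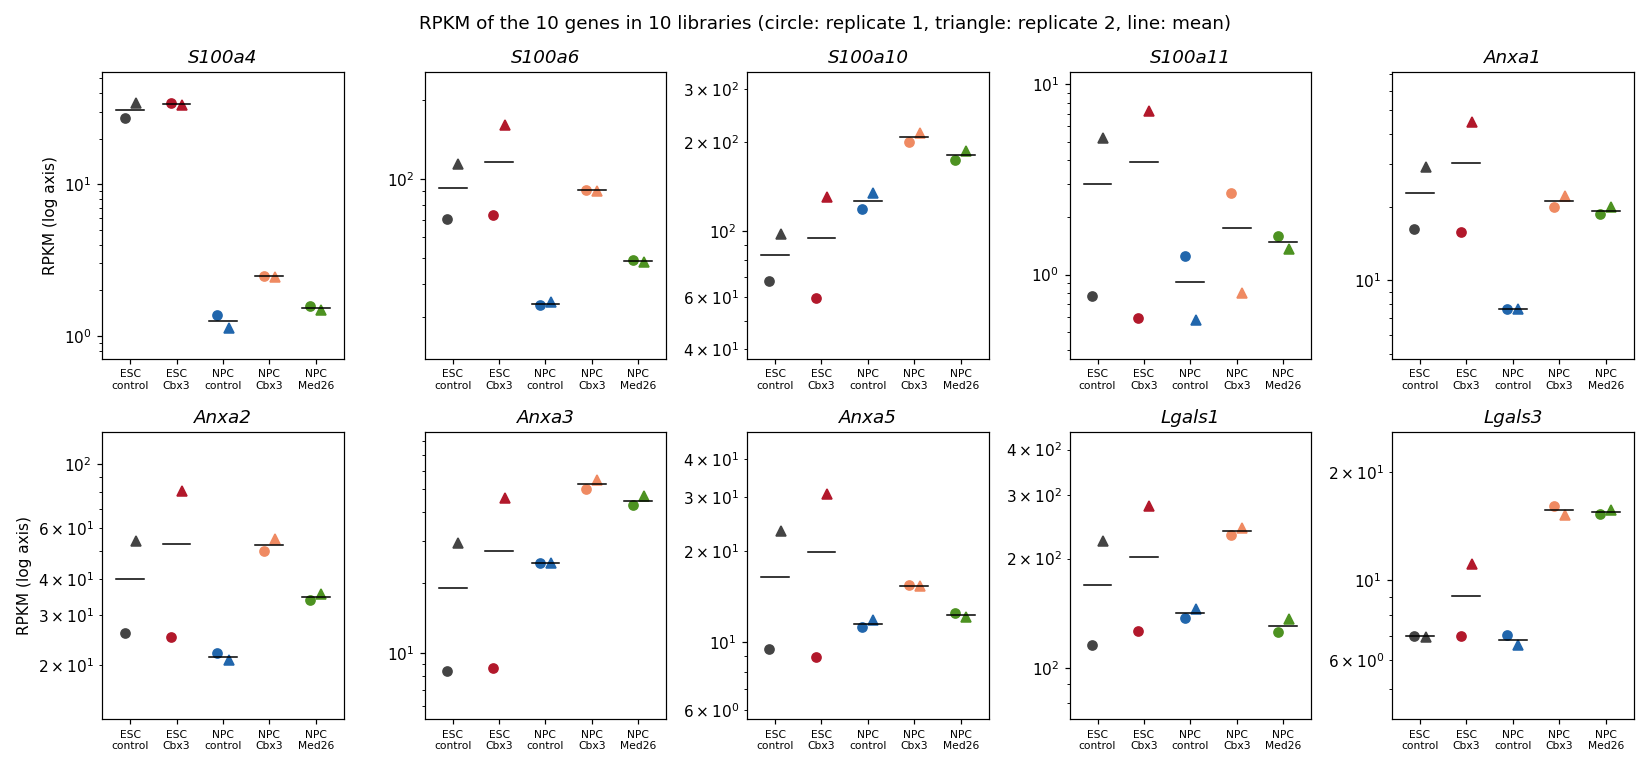
RPKM (log axes, a separate range for each gene) of the 10 genes in all 10 libraries, with a circle for replicate 1, a triangle for replicate 2 and a line for the mean of each group of 2. The NPC replicates lie close together for all genes but S100a11, while ESC replicate 2 lies above replicate 1 in both ESC groups for 8 genes, S100a4 and Lgals3 being the exceptions in part.

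Mean RPKM of all 10 genes was higher after Cbx3 siRNA in NPCs than in NPC control, from 1.33 times for Anxa5 to 2.76 times for Anxa1, with a median of 2.07. In the limma fit of the 6 NPC libraries on log2(RPKM + 1), 9 of the 10 were called higher and 0 lower at a Benjamini-Hochberg adjusted p under 0.05, where 7.84% of all tested genes were called higher and 5.33% lower. The genes were chosen with this comparison known, and nothing is read from that count. The exception was S100a11. In a fit of all 10 libraries, whose spread includes the ESC replicates, 0 of the 10 genes were called in this or in the other NPC comparisons. The median log2 change of the 10 genes was 0.91, against 0.01 over all tested genes. The control and Cbx3 siRNA libraries overlapped for S100a11 only. The share of all tested genes without overlap was not counted, here or in the comparisons below. With 2 libraries per group, nothing is read from such separation.

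Among the S100 genes, S100a6 (calcyclin, known for binding the Siah-interacting protein Cacybp) stood at 33.1 and 33.9 RPKM in the control libraries and at 90.7 and 90.5 RPKM in the Cbx3 siRNA libraries. The groups were far apart relative to their replicates, with a ratio of means of 2.70 and a log2 change of 1.41 (standard error 0.05). S100a10, the partner of Anxa2, went from 119 and 134 RPKM to 199 and 215 RPKM, a log2 change of 0.71 (standard error 0.08), with both treated libraries above both controls. S100a4, which binds non-muscle myosin heavy chain and is often used to mark fibroblasts, went from 1.38 and 1.13 RPKM to 2.50 and 2.44 RPKM. Its ratio of 1.97 rested on levels far below those of the other called genes, with a log2 change of 0.62 (standard error 0.08). S100a11, the partner of Anxa1, held 1.25 and 0.577 RPKM without and 2.69 and 0.804 RPKM with the Cbx3 siRNA. The groups overlapped, the treated replicates differed by more than the group means did, and its log2 change was 0.45 (standard error 0.33) on an estimated 16 to 63 reads per library.

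Among the annexins, Anxa1, a ligand of formyl peptide receptors once released from cells, went from 7.64 and 7.63 RPKM in the NPC control libraries to 20.1 and 22.1 RPKM with the Cbx3 siRNA (log2 change 1.35, standard error 0.07). Anxa2, a membrane scaffold that also binds actin, went from 22.0 and 20.9 RPKM to 50.02 and 54.8 RPKM (1.25, standard error 0.07). Anxa3 went from 24.2 RPKM in both control libraries to 50.2 and 54.7 RPKM (1.09, standard error 0.07). These 3 annexins thus stood at 2.17 to 2.76 times their control means. Anxa5, which binds phosphatidylserine and is used to stain dying cells, stood at 11.2 and 11.8 RPKM without and at 15.4 and 15.3 RPKM with the siRNA. It had the smallest ratio of the 10 genes and a log2 change of 0.39 (standard error 0.06), and it did not pass when either NPC control library or either NPC Cbx3 siRNA library was left out (log2 change 0.35 to 0.42).

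Both galectins were higher as well. Lgals1, a dimeric galectin and the most abundant of the 10 in NPC control, went from 137 and 146 RPKM to 232 and 243 RPKM (log2 change 0.75, standard error 0.06). Lgals3, a galectin with a collagen-like tail that gathers at damaged lysosomes, went from 7.02 and 6.59 RPKM to 16.1 and 15.1 RPKM (1.09, standard error 0.07). Summed over the 10 genes, RPKM went from 364 and 386 in NPC control to 679 and 713 after Cbx3 siRNA.

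**Figure D2:**
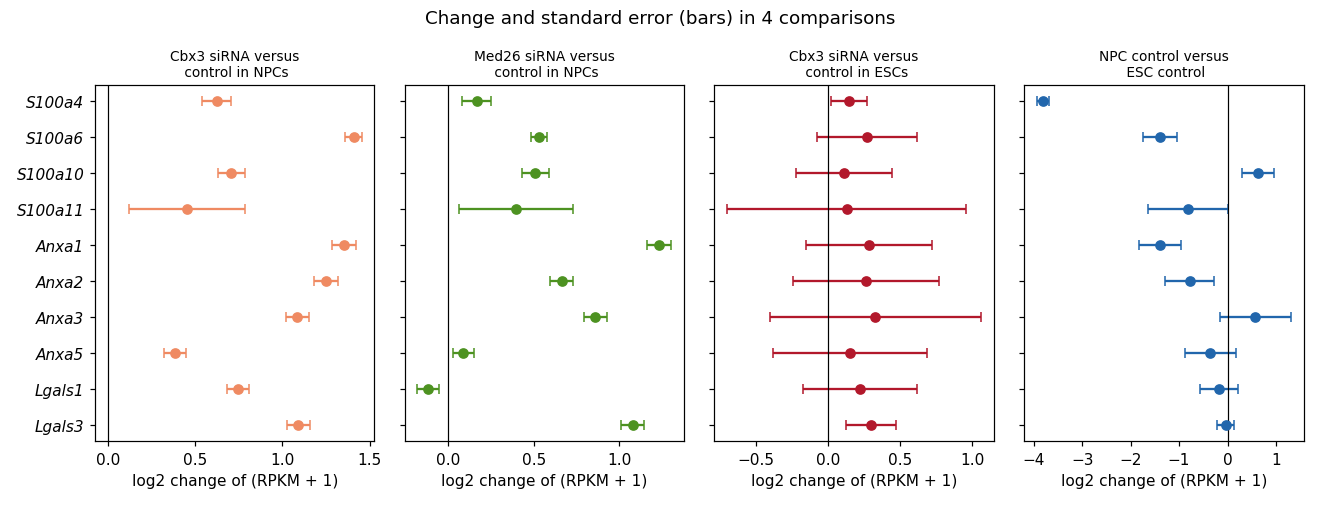
Log2 change of (RPKM + 1) for each of the 10 genes in 4 comparisons, with bars of 1 standard error from limma (2 libraries per group) and a separate range for each panel. In NPCs after Cbx3 siRNA the points lie between 0.39 and 1.41 and the bar of S100a11 is the widest, while in ESCs the bars of all genes but S100a4 and Lgals3 cross 0.

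Several of the genes were also higher after Med26 siRNA in NPCs. Anxa1 was 18.7 and 19.9 RPKM (log2 change 1.23, standard error 0.07), Lgals3 was 15.3 and 15.6 RPKM (1.08, standard error 0.07) and Anxa3 was 42.8 and 46.7 RPKM (0.86, standard error 0.07). Anxa2 was 33.8 and 35.3 RPKM (0.66, standard error 0.07), S100a6 was 49.2 and 48.6 RPKM (0.53, standard error 0.05) and S100a10 was 174 and 186 RPKM (0.51, standard error 0.08). These 6 were called higher and 0 lower, where 6.99% of all tested genes were called higher and 6.52% lower, and again nothing is read from the count. The call of S100a10 was lost without NPC control replicate 1 (log2 change 0.42) and without Med26 siRNA replicate 1 (0.56) or 2 (0.46). S100a4 at 1.57 and 1.48 RPKM, S100a11 at 1.59 and 1.37 RPKM and Anxa5 at 12.5 and 12.1 RPKM lay just above the control libraries without a call, with log2 changes of 0.17, 0.40 and 0.09. Lgals1, at 125 and 136 RPKM, was the only one of the 10 below its control libraries (-0.12, standard error 0.06). None of the 10 genes had Med26 siRNA libraries that overlapped the control libraries, those with small changes such as Lgals1 and Anxa5 included, and nothing is read from this. The median log2 change was 0.52, against 0 over all tested genes.

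Set against each other, the knockdowns differed in 5 of the 10 genes by the limma call, and again nothing is read from the count. S100a6 (log2 difference 0.88), Lgals1 (0.86), Anxa2 (0.59), S100a4 (0.46) and Anxa5 (0.30) were called higher after Cbx3 siRNA than after Med26 siRNA, with standard errors of 0.05 to 0.08. S100a10 (0.20), S100a11 (0.06), Anxa1 (0.12), Anxa3 (0.23) and Lgals3 (0.01) were not called, with 95% intervals from 0.01 to 0.39 for S100a10, from -0.75 to 0.86 for S100a11, from -0.05 to 0.29 for Anxa1, from 0.06 to 0.39 for Anxa3 and from -0.15 to 0.17 for Lgals3. Lgals3 was thus nearly level after both siRNAs, at 15.6 and 15.5 RPKM (group means), and Lgals1 was 1.82 times as high after Cbx3 siRNA as after Med26 siRNA. In this comparison 10.5% of all tested genes were called higher after Cbx3 siRNA and 7.95% lower, and the median log2 difference was 0.26 for the 10 genes and 0.01 for all. Without either library of Cbx3 or of Med26 siRNA, S100a4 (0.43 to 0.49) and Anxa5 (0.27 to 0.32) were no longer called. The 3 NPC comparisons share libraries, so their values are given side by side and not as independent results.

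**Figure D3:**
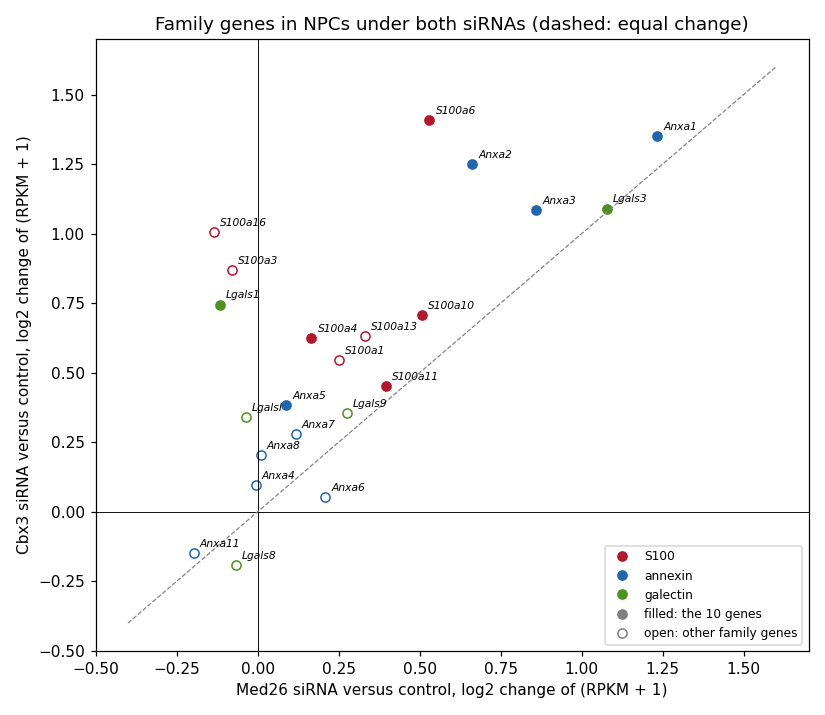
Log2 change of (RPKM + 1) against NPC control after Med26 siRNA (horizontal) and after Cbx3 siRNA (vertical) for the 10 genes (filled) and the 12 other tested genes of the families (open), coloured by family. Both axes use the same 2 control libraries, and the dashed line marks equal change. Anxa1, Anxa3 and Lgals3 are the genes above 0.8 on both axes. Of the filled points, S100a6, Anxa2 and Lgals1 lie well above the dashed line, and the open points of S100a16 and S100a3 lie farther above that line.

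Between the control groups, S100a4 differed most. The ESC control libraries held 27.2 and 34.3 RPKM of it, 24.5 times the NPC control mean, with a log2 change of -3.81 (standard error 0.13) in the limma fit of all 10 libraries. S100a6 stood at 70.3 and 114 RPKM in ESC control, above its NPC control libraries (log2 change -1.39, standard error 0.35). These were the 2 genes called lower, and 0 were called higher, where 10.2% of all tested genes were called higher in NPCs and 5.89% lower. Over all genes that is 1204 higher and 697 lower, and scaling the libraries by their median ratios gave 960 and 872. S100a10 was 68.1 and 97.5 RPKM in ESC control, below both NPC control libraries. Anxa1 (16.2 and 29.3 RPKM) and Anxa2 (25.9 and 54.1 RPKM) lay above theirs. The control groups overlapped for S100a11, Anxa3, Anxa5, Lgals1 and Lgals3. Lgals3 was nearly level, at 7.02 and 6.97 RPKM in ESC control. The median log2 change of the 10 genes was -0.57, against 0.03 over all genes.

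The spread of the ESC libraries touched all of these values. In control, replicate 2 held a median of 1.87 times the RPKM of replicate 1 over the 10 genes, from 0.993 times for Lgals3 to 6.72 times for S100a11, and after Cbx3 siRNA the median was 2.52 times, from 0.965 for S100a4 to 12.3 for S100a11. Over all tested genes the median log2 of these ratios was -0.07 in control and 0 after Cbx3 siRNA. Anxa3 was 8.42 RPKM in ESC control replicate 1 and 29.5 RPKM in replicate 2, and the NPC control libraries lay between them. With both ESC libraries numbered 1 left out, 9 of the 10 genes were called between NPC and ESC control, 1 higher in NPCs (S100a10) and 8 lower, and with both libraries numbered 2 left out 8 were called, 4 higher and 4 lower. In these fits each ESC group is 1 library, assumed to vary like the NPC groups, and of the 11838 tested genes 3144 were called higher and 2023 lower in the former and 2738 and 2728 in the latter. S100a4 was called lower in NPCs in each of the 10 fits that left out a single library (log2 change -3.97 to -3.65). S100a6 was not called without ESC control replicate 2 (-1.05) or without any 1 of the 6 NPC libraries (-1.41 to -1.37).

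Cbx3 siRNA in ESCs gave no called gene in the fit without a replicate block. Even the target Cbx3 was not called there (log2 change -3.59, standard error 0.53). The absence of calls therefore does not show an absence of response. None of the 10 genes was called, with log2 changes of 0.11 to 0.33 and a median of 0.24, against -0.03 over all genes. In limma 0% of all tested genes were called higher and 0% lower, and 641 genes, none of the 10 among them, had an unadjusted p under 0.05. S100a4 was 34.4 and 33.2 RPKM after Cbx3 siRNA and thus close to the higher control library. S100a6 was 73.0 and 160.0 RPKM, Lgals1 was 126 and 279 RPKM and Anxa2 was 25.1 and 80.7 RPKM, each with 1 library near the lower control library and 1 above the higher one. Libraries of the same number gave different ratios: in those numbered 1 Cbx3 siRNA stood at 0.763 to 1.27 times control, with a median of 0.988 and 4 of 10 genes above 1, and in those numbered 2 at 0.967 to 1.59 times, with a median of 1.40 and 9 of 10 above 1. Among the latter, Lgals3 (1.59 times), Anxa3 (1.55 times) and Anxa1 (1.53 times) had the largest ratios and S100a4 (0.967 times) the smallest. With both ESC libraries numbered 1 left out, S100a6 was called, and with those numbered 2 left out none was, where 52 and 29 of all tested genes were called higher and 17 and 47 lower in these fits of 1 library per ESC group.

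**Figure D4:**
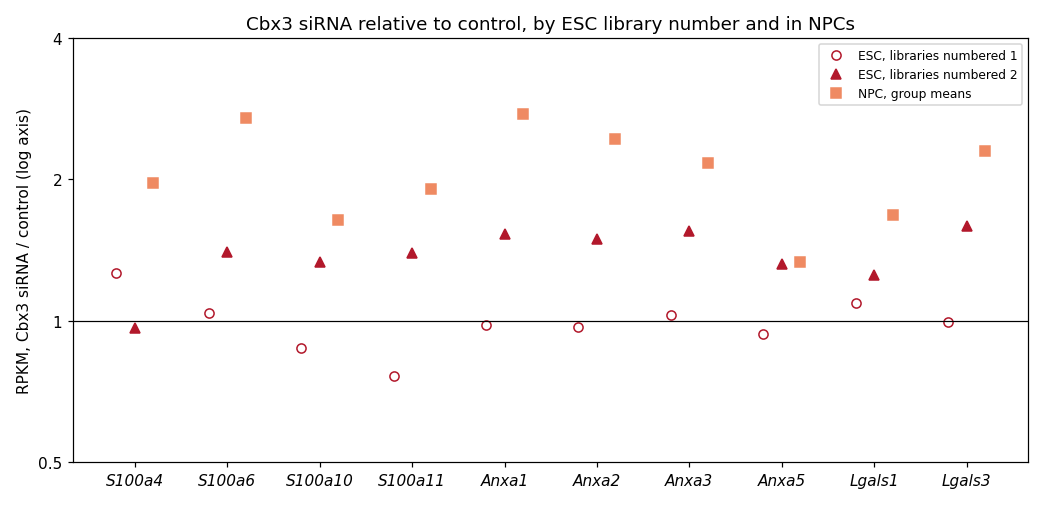
RPKM after Cbx3 siRNA divided by RPKM in control (log axis) for the 10 genes, in ESC libraries numbered 1 (open circles), in ESC libraries numbered 2 (triangles) and from group means in NPCs (squares). ESC libraries numbered 1 lie between 0.763 and 1.27, those numbered 2 between 0.967 and 1.59, and NPC ratios between 1.33 and 2.76.

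The response to Cbx3 siRNA in NPCs minus that in ESCs was positive for all 10 genes, with a median of 0.68 on the log2 scale against 0.03 over all genes. Without a replicate block none was called, and 0% of all tested genes were called in either direction (higher 0%, lower 0%), while 230 genes, 2 of the 10 among them, had an unadjusted p under 0.05 in limma. The difference was 1.14 (standard error 0.49) for S100a6, 0.79 (standard error 0.25) for Lgals3 and 0.48 (standard error 0.18) for S100a4. The standard errors carry the spread of the ESC libraries. The genes were chosen with the NPC response known, which by itself favours positive differences, and nothing is read from their shared sign.

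The other genes of the families were listed from general knowledge, with earlier results known: 29 genes, of which 28 were in the table and 12 passed the filter. After Cbx3 siRNA in NPCs 4 of the 12 rose and 0 fell, 3 of 4 S100 genes, 1 of 5 annexins and 0 of 3 galectins, where 7.84% of all tested genes were called higher and 5.33% lower. The median log2 change of the 12 was 0.31. S100a3, next but one to S100a4 in the S100 run, rose from 0.444 and 0.179 RPKM to 1.38 and 1.38 RPKM (log2 change 0.87). It reached 1 RPKM only in these Cbx3 siRNA libraries. Its call and its place in the count therefore follow in part from the filter, and nothing is read from them. S100a16 rose from 0.999 and 1.61 RPKM to 3.75 and 3.42 RPKM (1.01, limma, adjusted p = 0.0141) and S100a13, known for a role in the release of proteins that lack a signal peptide, rose from a mean of 0.873 RPKM to 1.91 RPKM (0.63, limma, adjusted p = 0.0092). Anxa7, an annexin of secretory granules, rose from 34.5 and 34.2 RPKM to 41.5 and 42.3 RPKM (0.28, limma, adjusted p = 0.0161). The number called was 1 without NPC control replicate 1, 2 without either Cbx3 siRNA library, and 0 in the fit of all 10 libraries. Anxa6 (56.6 RPKM over all libraries), Anxa7 (34.4 RPKM) and Anxa4 (12.9 RPKM) had the highest means among these genes, and Anxa6 and Anxa4 did not pass in any comparison. S100a9 was listed at 0 in every library and S100a8 at no more than 0.110 RPKM, so the S100 genes of the granulocyte were near or at 0.

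After Med26 siRNA 0 of the 12 passed in limma, with 4 at an unadjusted p under 0.05, where 6.99% of all tested genes were called higher and 6.52% lower. S100a16 (log2 difference 1.14, limma, adjusted p = 0.00804) was higher after Cbx3 siRNA than after Med26 siRNA, as S100a4 and S100a6 were. S100a3 (0.95) was called as well, but it passed the filter only through the Cbx3 siRNA libraries. Between NPC and ESC control 4 of the 12 were lower in NPCs and 0 higher, where 5.89% of all tested genes were called lower and 10.2% higher. They were Lgals9, Anxa8, S100a16 (log2 change -0.82, limma, adjusted p = 0.048) and Lgalsl (-0.52, limma, adjusted p = 0.0239). Lgals9, a galectin with a pair of sugar-binding domains, stood at 0.286 and 0.195 RPKM against 3.92 and 5.07 RPKM (-2.14). For Anxa8 the log2 change was -1.49. Lgals9 and Anxa8 reached 1 RPKM only in ESC libraries, so their direction follows in part from the filter and nothing is read from their calls. The number called was 1 without either NPC control library and 2 without any 1 of the other NPC libraries. In ESCs after Cbx3 siRNA and in the difference of responses 0 of the 12 passed.

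Of 26 known binding partners, receptors and ligands of the 10 proteins, all were in the table and 18 passed the filter. After Cbx3 siRNA in NPCs 3 of the 18 rose and 0 fell (7.84% and 5.33% of all tested genes), with a median log2 change of 0.07, and none reached a log2 change of 1. They are named here after their values were seen. Ahnak, a giant scaffold protein bound by the S100a10 and Anxa2 complex, rose from 15.6 and 15.5 RPKM to 28.9 and 30.1 RPKM (log2 change 0.88, limma, adjusted p = 0.000875). Plaur, the urokinase receptor, rose from 20.6 and 21.9 RPKM to 32.1 and 34.0 RPKM (0.62, limma, adjusted p = 0.00382), and Myh9, the non-muscle myosin heavy chain bound by S100a4, rose from 70.9 and 68.7 RPKM to 90.9 and 87.8 RPKM (0.35, limma, adjusted p = 0.0102). After Med26 siRNA the same 3 rose, Ahnak by 0.97 (limma, adjusted p = 0.00103), Plaur by 0.37 (limma, adjusted p = 0.0178) and Myh9 by 0.53 (limma, adjusted p = 0.00434), with the galectin-binding integrin chain Itgb1 (0.38, limma, adjusted p = 0.0112) and the lysosomal membrane protein Lamp2 (0.94, limma, adjusted p = 0.00332), 5 of 18 in all, where 6.99% of all tested genes were called higher. Between the knockdowns, Plaur was higher after Cbx3 siRNA, and Itgb1 and Lamp2 were lower (10.5% and 7.95% of all tested genes). Between NPC and ESC control 1 of the 18 was higher and 4 lower in NPCs (10.2% and 5.89% of all tested genes). For Cacybp, the partner of S100a6, the log2 change with Cbx3 siRNA in NPCs was -0.04 (limma, adjusted p = 0.788). The formyl peptide receptors Fpr1 and Fpr2 did not exceed 0.045 RPKM in any library, and the S100 receptor Ager did not exceed 0.352 RPKM.

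Levels of the 10 genes went together across the 6 NPC libraries. The 45 pairs had Pearson correlations of log2(RPKM + 1) from 0.18 to 0.99 with a median of 0.83, and over all 10 libraries from -0.75 to 0.93 with a median of 0.55, where pairs with S100a4 had a median of 0.30. These points share libraries and groups, and the correlations describe them. The genes were chosen with earlier results of these data known, which by itself favours positive correlations here, and pairs of other genes were not compared. The tested genes outside the list with the nearest pattern over the 10 libraries, among those of at least 5 RPKM on average, were Zfp979 (r = 0.994) and Lncenc1 (0.992) for S100a4, and Cdv3 (0.969) and Tgm1 (0.968) for S100a6. For S100a10 the keratin gene Krt19 (0.988) is given, and for S100a11 Tmed10 (0.975) and Hmga1 (0.964). Fam122b (0.958) and Lmna (0.955) were nearest to Anxa1, Scamp1 (0.957) and Sfmbt2 (0.953) to Anxa2, Tax1bp3 (0.991) and H19 (0.987) to Anxa3, and Ube2j2 (0.982) and B2m (0.979) to Anxa5. The nearest to Lgals1 were Scamp1 (0.933) and Arf1 (0.929), and those to Lgals3 were the AP-1 gene Junb (0.959) and B3gnt5 (0.957). Krt19 stood at 16.3 and 17.8 RPKM in NPC control, 35.2 and 40.7 RPKM after Cbx3 siRNA and 40.5 and 37.4 RPKM after Med26 siRNA, higher after both as S100a10 was.

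Markers of other cell types that express these genes moved with them in part. Fewer cells of a type and less RNA per cell cannot be told apart in bulk RNA. The summed RPKM of 10 epithelial markers was 704 and 710 in NPC control, 1077 and 1110 after Cbx3 siRNA and 965 and 986 after Med26 siRNA. In ESC libraries numbered 1 it was 306 and 274, and in those numbered 2 it was 481 and 630 (control first). Krt8 rose after Cbx3 siRNA in NPCs (log2 change 1.51, limma, adjusted p = 0.00029) and after Med26 siRNA (0.94, limma, adjusted p = 0.00183). In these comparisons 6 and 8 of the 10 epithelial markers were called higher and 0 lower. Of all tested genes 7.84% and 6.99% were called higher in them and 5.33% and 6.52% lower. Between NPC and ESC control the shares were 10.2% higher and 5.89% lower, and between the knockdowns 10.5% and 7.95%. The marker lists were chosen with earlier results known, and nothing is read from the marker counts. For the epithelial adhesion gene Epcam the log2 change was -0.01 after Cbx3 siRNA (limma, adjusted p = 0.964) and 0.07 after Med26 siRNA (limma, adjusted p = 0.566). For the adhesion gene Cdh1 it was -0.17 after Cbx3 siRNA (limma, adjusted p = 0.173), and Cdh1 rose by 0.29 after Med26 siRNA (limma, adjusted p = 0.0438). Krt8 in ESC control was 4.59 and 40.7 RPKM, replicates apart in the same direction as 9 of the 10 genes. The summed fibroblast markers, 15 genes, were 34.6 to 63.0 RPKM in the 4 ESC libraries and 22.1 to 30.7 RPKM in the 6 NPC libraries, with 22.4 and 23.8 in NPC control and 30.4 and 30.7 after Cbx3 siRNA. Of the 11 fibroblast markers that passed the filter, 3 were called lower in NPC than in ESC control (Col1a1, Col1a2 and Col3a1), 0 higher and 8 not called. After Cbx3 siRNA in NPCs Col3a1, Col5a1 and Col6a2 were called higher and Col1a2 lower, and after Med26 siRNA 0 were called. Macrophage markers other than Cd68 were near 0: the 8 genes summed to 1.98 to 4.66 RPKM, Tyrobp was listed at 0 in every library and Ptprc at no more than 0.0416 RPKM. Cd68, at 1.77 to 4.21 RPKM, made most of the sum and was the only macrophage marker past the filter. It was called higher after Cbx3 siRNA in NPCs than in control (log2 change 0.43, limma, adjusted p = 0.0277) and than after Med26 siRNA (0.58, limma, adjusted p = 0.00944). Smooth muscle markers (6 genes) summed to 493 and 496 RPKM in NPC control, 580 and 602 RPKM after Cbx3 siRNA and 665 and 728 RPKM after Med26 siRNA. Most of this was Tagln, at means of 282, 373 and 470 RPKM in these groups, and Myh11 did not exceed 0.408 RPKM. After Cbx3 siRNA Acta2, Des and Tagln were called higher, while Cnn1 (log2 change -0.11) and Myl9 (-0.19) were not called. After Med26 siRNA Acta2, Cnn1 and Tagln were called higher and 0 lower. The summed neural progenitor markers (8 genes) went the other way with Cbx3 siRNA, from 79.7 and 77.8 RPKM to 56.6 and 59.9 RPKM, and stood at 92.8 and 95.3 RPKM after Med26 siRNA. In the ESC libraries this sum was 92.0 to 146 RPKM, above NPC control, with Sox2 alone at 72.1 to 131 RPKM, so it does not set NPCs apart from ESCs. Pax6, Sox1, Sox2 and Dll1 were called lower after Cbx3 siRNA in NPCs and 0 higher. After Med26 siRNA Sox2 was called higher and Dll1 lower. The part of epithelial, smooth muscle, fibroblast or macrophage cells in the values of the 10 genes was not tested.

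**Figure D5:**
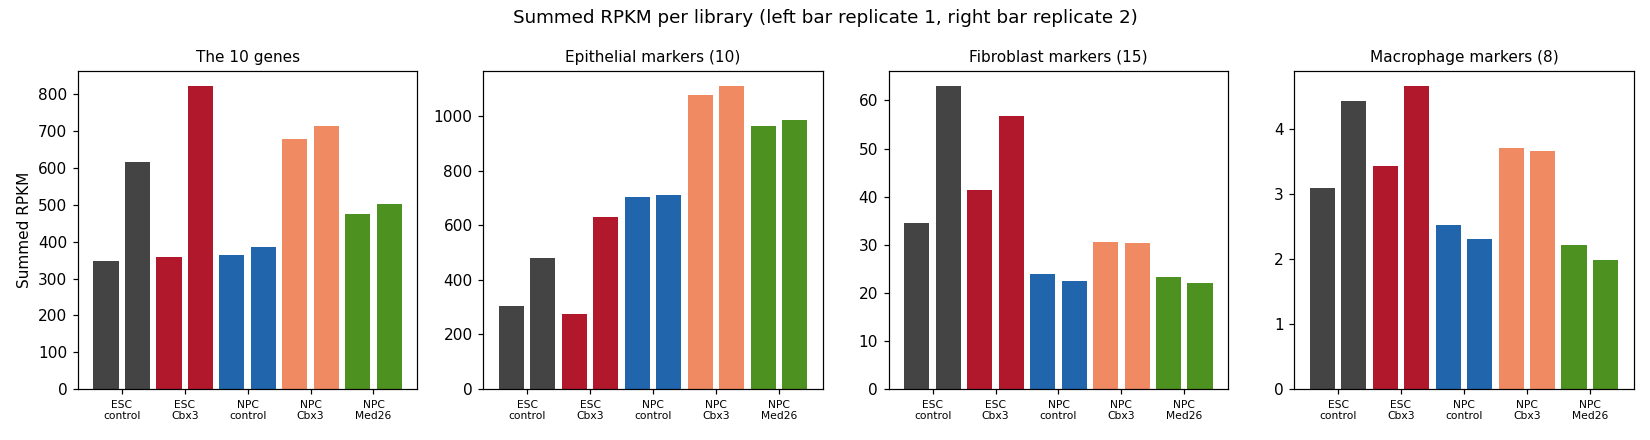
Summed RPKM per library of the 10 genes and of the epithelial, fibroblast and macrophage marker lists, with the left bar of each group for replicate 1, the right bar for replicate 2 and a separate range for each panel. The 10 genes sum to 364 and 386 in NPC control and 679 and 713 after Cbx3 siRNA, the epithelial markers are also higher in the latter, and the macrophage markers stay below 4.7 in every library.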

How the data were processed

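Total RNA was sequenced in 10 libraries, 2 for each of 5 groups taken from the labels. The authors deposited RPKM values per RefSeq transcript accession in 1 table, and TopHat2 2.08 and the build mm9 are named per the submitters' processing notes. No source used here gives the counting tool, annotation release or use of strand. Of 35860 rows, 99.07% received a gene symbol from the RefSeq table of GRCm38.p6 (names, gene order and promoters only), and the row with the highest mean stood for each gene. No count test was run, since only 64.6% to 70.1% of low values lay within 0.1 of a whole read.

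The 11838 genes that reached 1 RPKM in 2 or more libraries were fitted as log2(RPKM + 1) in limma 3.58.1 (R 4.3.3) with the trend option, two-sided tests and Benjamini-Hochberg adjustment over all tested genes at 0.05. The scale understates changes of low genes. Among the called genes named here, Lgals9, Anxa8, Klf4 and Col3a1 reached 1 RPKM only in ESC libraries. S100a3 and Col6a2 passed the filter only with the NPC Cbx3 siRNA libraries. The calls of these genes in the matching comparisons follow in part from the filter. Comparisons among NPCs used the 6 NPC libraries (3 residual degrees of freedom), the others all 10 (5 residual degrees of freedom). The members and lists were chosen with earlier results of these data known. All members were named, with other family genes that passed and the 3 of highest mean, partners past the threshold at 2-fold, and the 2 genes most correlated with each member, of which 1 is not reported here. The procedure was tested on simulated data. Alternatives covered pseudocount, filter, scaling, row choice, samples in the fit, a block and each library left out.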

Additional observations from a re-analysis of the deposited data

How the results depend on the processing

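Groups of 2 libraries limit every call, and depth limits S100a11 most. Values below count genes called, with the main value first. With all 10 libraries in 1 fit, the called members went from 9 to 0 after Cbx3 siRNA in NPCs, from 6 to 0 after Med26 siRNA and from 5 to 0 between the knockdowns, and the called other family genes from 4 to 0 after Cbx3 siRNA and from 2 to 0 between the knockdowns; their log2 changes are the same in that fit and the standard errors are those of a spread that includes the ESC libraries. With a filter of at least 5 RPKM in 2 libraries, which keeps fewer low genes, 1 other family gene was called in each of Cbx3 siRNA in NPCs, the knockdowns against each other and NPC against ESC control. S100a3, S100a13, S100a16, Anxa8 and Lgals9 did not reach that filter and were not tested with it. The gene called with it between the knockdowns was therefore not among those called in the main fit. Between NPC and ESC control 1 member remained called without a filter and 1 with the 4 control libraries alone, where 1 other family gene was called. Leaving out 1 library gave 8 to 9 members and 1 to 4 other genes for Cbx3 siRNA in NPCs, 5 to 6 members for Med26 siRNA, 3 to 5 members between the knockdowns, and 1 to 4 members and 1 to 5 other genes between NPC and ESC control.

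Replicates share only a number in the labels. Differences between replicates 1 and 2 correlated over genes at 0.892 between the ESC groups, at 0.422 to 0.46 between NPC groups and at -0.07 to -0.041 between ESC and NPC groups. A replicate block within each cell type left every log2 change of the members as it was. With it, called members were 9 for Cbx3 siRNA in NPCs, 7 for Med26 siRNA (6 higher and Lgals1 lower), 7 between the knockdowns (S100a10 and Anxa3 added), 9 for NPC against ESC control (2 higher, 7 lower), 0 for Cbx3 siRNA in ESCs and 1 (S100a6) for the difference of responses, and called other genes were 6 for Cbx3 siRNA in NPCs, 3 for Med26 siRNA, 6 between the knockdowns, 9 for NPC against ESC control and 1 for Cbx3 siRNA in ESCs. Between NPC and ESC control the numbers do not match up across cell types, so there the block only takes the spread between replicates 1 and 2 out of the error. Fits added after seeing the data left out both ESC libraries of 1 number: NPC against ESC control then gave 9 and 8 members (numbers 1 and 2 left out), with 3144 higher and 2023 lower and 2738 and 2728 over all genes, and Cbx3 siRNA in ESCs gave 1 with number 1 left out, with 52 and 17 over all genes.

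Directions that turned when 1 library was left out belonged to genes not called. The log2 change of S100a11 ranged from -0.063 to 0.97 after Cbx3 siRNA in NPCs, from -0.46 to 0.58 between the knockdowns and from -1.72 to 0.088 between NPC and ESC control. Lgals3 ranged from -0.028 to 0.054 between the knockdowns and from -0.075 to 0.006 between NPC and ESC control, where Anxa3 ranged from -0.28 to 1.42, Anxa5 from -0.95 to 0.25 and Lgals1 from -0.66 to 0.29. For Cbx3 siRNA in ESCs the ranges were -0.022 to 0.31 for S100a4, -0.29 to 0.83 for S100a6, -0.45 to 0.67 for S100a10, -1.06 to 1.32 for S100a11, -0.44 to 1.003 for Anxa1, -0.56 to 1.09 for Anxa2, -0.81 to 1.46 for Anxa3, -0.68 to 0.99 for Anxa5 and -0.35 to 0.79 for Lgals1. Over all genes, calls after Cbx3 siRNA in NPCs (928 higher, 631 lower) became 571 and 308 without a filter, 4 and 2 with all 10 libraries and 1890 and 1570 with the block. For Med26 siRNA 828 and 772 became 340 and 280, 3 and 12, and 1800 and 1871, and between the knockdowns 1240 and 941 became 783 and 552, 79 and 40, and 2339 and 1872. For NPC against ESC control 1204 and 697 became 15 and 34 with the 4 control libraries and 3791 and 3058 with the block. For Cbx3 siRNA in ESCs 0 and 0 became 271 and 535 with the block and 1 and 1 without a filter, and for the difference of responses 4 and 2, and 1 and 3. Pseudocounts of 0.1 and 0.5, median ratio scaling and summed rows changed no count of called members or other family genes by more than 1.5 times. The causes of the other changes were not tested.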
